A study of Mus musculus with 4 samples.

Results

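The genes described here encode the proteins of the cytosolic ribosome. They were chosen by name: a symbol of Rpl or Rps followed by a digit, or Rplp0, Rplp1, Rplp2 or Rpsa, with at least 1 transcript annotated as protein coding, leaving out names with -ps and the Rps6k kinases. This gave 86 of the 55536 mouse genes in the tables, of which 52 are named for the large subunit (Rpl) and 34 for the small subunit (Rps). The core proteins of the particle are encoded by 77 of them, 46 in the large and 31 in the small subunit. The other 9 are paralogs (Rpl3l, Rpl7l1, Rpl10l, Rpl22l1, Rpl36al, Rpl39l, Rps27l and Rps27rt) and Rps19bp1, which encodes a protein that binds Rps19 and is not itself a ribosomal protein. A further 7 genes with such names have no protein-coding transcript in the annotation and were not counted as members.

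Ribosomes join a small subunit, which reads the messenger RNA, and a large subunit, which forms the peptide bonds, and most of their proteins are present in equal number in the finished particle. The messenger RNAs of these proteins typically start with a C and a run of pyrimidines, the terminal oligopyrimidine (TOP) motif, through which mTOR and the RNA-binding protein Larp1 set how much of them is translated, for example when a resting T cell is activated. Mammalian genomes also carry many processed copies of ribosomal protein messenger RNAs, most of them pseudogenes, whose sequence can be almost that of the parent gene.

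Total RNA was sequenced from primary T cells of the spleen, described in the labels by CD3, of adult virgin male B6CASTF1/J mice, the offspring of C57BL/6 mothers and CAST/EiJ fathers, at 66 days of age. There was 1 group, for which the labels name no treatment, of 4 libraries, called libraries 1 to 4 after their biological replicate numbers, each made from an input of 300 ng to which ERCC spike-ins were added. The labels give the 4 biological replicates 1 common donor identifier and do not say whether each came from a separate animal, so p-values measure the spread between these libraries, which may be partly technical. With 1 group, the comparisons are between genes within a library and between libraries. Total expected counts ran from 14584388 in library 4 to 17335895 in library 2. All 10 pan-T markers were detected, summing to between 2894 and 3007 TPM (a level scaled to transcript length and to the sum over all measured RNA of the library). Of the other cell types, the 10 B cell markers summed to 297 TPM in library 4 against 38.7 to 53.3 in the other libraries, the 8 erythroid markers to 634 against 15.3 to 62.5, and the 8 neutrophil markers to 34.9 TPM in library 2 against 8.39 to 12.1. The 7 monocyte and macrophage markers summed to 26.8 to 31.3 TPM and the 6 natural killer markers to 45.5 to 51.8 TPM, and no listed marker was at 0 in all 4 libraries.

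The ribosomal protein genes were among the most abundant messenger RNAs of these cells. All 77 core genes reached 10 TPM in every library, and 77 of the 86 members reached 100 TPM in every library, which 577 of all 55536 genes did. Members made 24 of the 81 genes at 1000 TPM or more in every library. Together the 86 members held 7.12%, 7.51%, 7.13% and 7.03% of all TPM in libraries 1 to 4 (7.20% ± 0.21, SD, n = 4), so the share was highest in library 2 and lowest in library 4. The share depends on what is counted: among protein-coding nuclear genes, without mitochondrial genes and genes that have no protein-coding transcript, it was 20.9% ± 0.68 (SD, n = 4). Levels were unequal among members, and the 10 highest held 30.8% ± 0.16 of the member TPM.

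**Figure D1:**
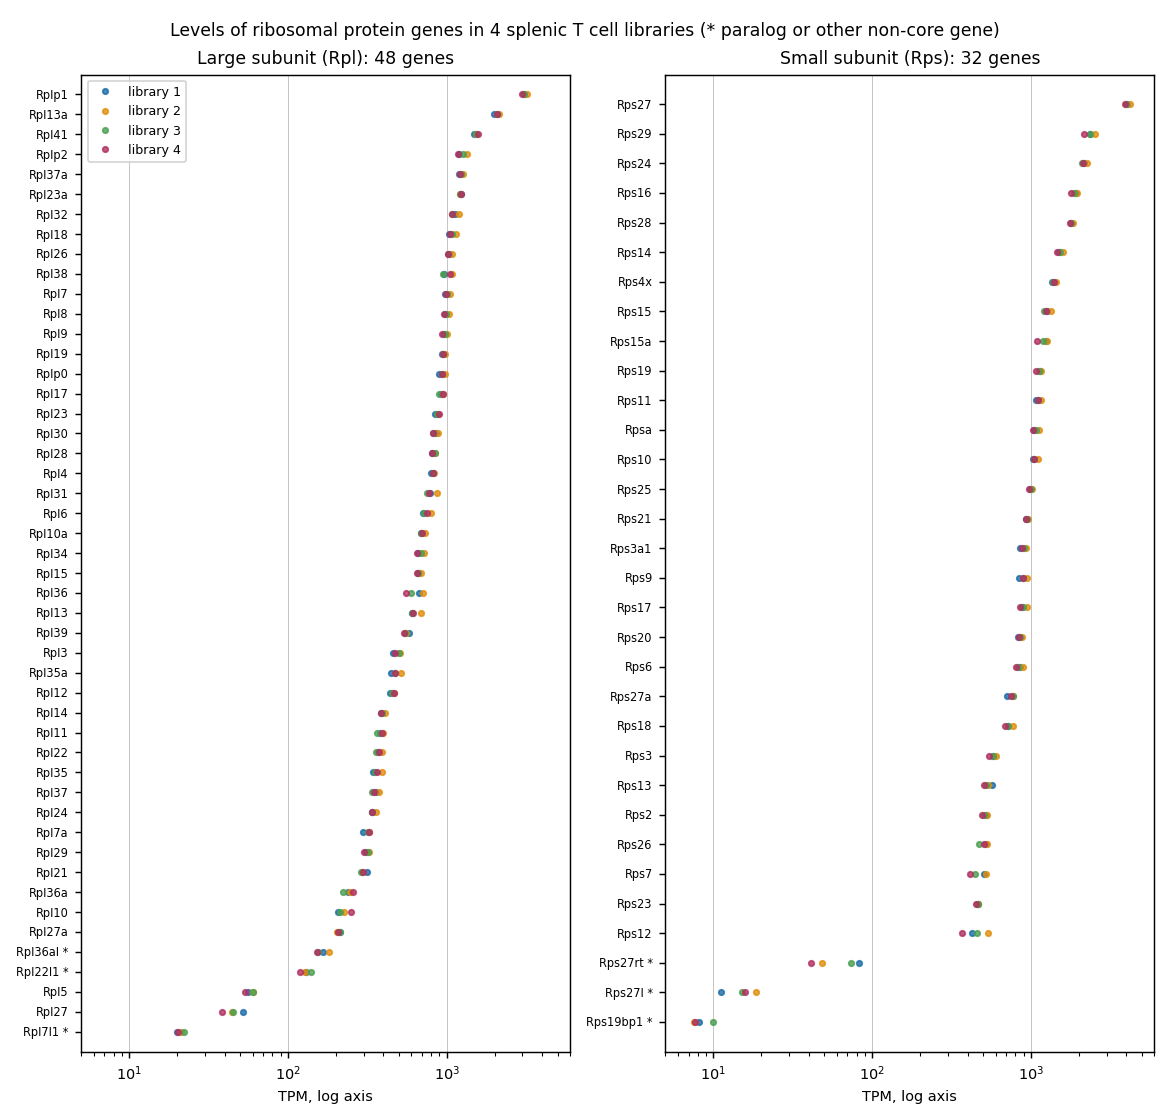
TPM on a log axis of 80 of the 83 members with a mean of at least 1 TPM (the others are not shown), ordered by their mean in each subunit, with 1 point per library (4 libraries). Points of 1 gene lie close together beside the range between genes, from 4045 TPM for Rps27 to 8.36 TPM for Rps19bp1, and Rpl5 and Rpl27 stand far below the other core genes.

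In the small subunit, Rps27, a zinc-finger protein, led all members. Its levels were 4037, 4225, 3999 and 3919 TPM in libraries 1 to 4 (4045 ± 130, SD, n = 4). Rps29, a small protein of the subunit's head, followed with 2375, 2523, 2350 and 2151 TPM. Rps24, at 2172, 2264, 2101 and 2120 TPM, and Rps29 are both mutated in some families with Diamond-Blackfan anaemia, an inherited failure of red cell production. Rps16, whose C-terminal tail reaches toward the decoding site, had 1918, 1943, 1867 and 1781 TPM. Rps28, which lines the exit of the mRNA channel, had 1797, 1851, 1796 and 1775 TPM. Library 2 was the highest for each of these 5 genes, and library 4 the lowest for all of them but Rps24.

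The lowest core genes of the small subunit were well below Rps27, and none was scarce. Rps12 had 426, 538, 460 and 367 TPM, and Rps23, a decoding-centre protein, 467, 466, 463 and 449 TPM. Rps7, a protein of the subunit's body that can also bind Mdm2, had 506, 523, 448 and 417 TPM. Rps26, at the mRNA exit, had 525, 531, 475 and 506 TPM. Rps2, at the mRNA entry, had 523, 533, 511 and 490 TPM.

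In the large subunit the highest gene was Rplp1, with 3068, 3188, 3076 and 2992 TPM. It encodes an acidic protein of the stalk, the flexible arm that recruits translation factors. Its stalk partner Rplp2 had 1195, 1336, 1260 and 1181 TPM, their anchor Rplp0 had 899, 969, 937 and 929 TPM, and Rpl12, at the stalk's base, had 440, 469, 454 and 467 TPM. Rpl13a, which is also known for a role outside the ribosome in silencing of inflammatory transcripts, had 1984, 2139, 2077 and 2084 TPM. Rpl41, the shortest of the core proteins, had 1496, 1537, 1538 and 1573 TPM.

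The 5 lowest core genes of the large subunit reached much lower values than any of the small subunit. Rpl27 had 52.3, 44.7, 45.1 and 38.4 TPM, and Rpl5 had 56.0, 59.98, 60.6 and 53.4 TPM. Rpl5 and Rpl11 bind the 5S ribosomal RNA, and the free particle they form holds the p53 regulator Mdm2 when ribosome assembly is disturbed. Rpl11 had 382, 400, 364 and 390 TPM, so the partners differed by 6.68-fold in mean TPM in this quantification. In the second quantification, deposited beside the first, Rpl11 had 951 and Rpl5 623 TPM, and with copies added the order turned, at 777 for Rpl11 and 1150 for Rpl5 in the first and 1201 and 1667 TPM in the second. Rpl27a had 212, 203, 211 and 206 TPM, Rpl10, which joins late at the peptidyl transferase centre, had 207, 226, 214 and 249 TPM, and Rpl36a had 238, 247, 221 and 258 TPM. Across the core genes, the mean of log2(TPM + 1) was lower for the large than for the small subunit by 0.70, 0.70, 0.70 and 0.66 in libraries 1 to 4 (mean difference -0.69 ± 0.02, SD, n = 4), in the same direction in every library. The median core gene had 722 TPM in the large and 999 TPM in the small subunit, while the summed TPM of both subunits was nearly equal, at 3.62% ± 0.10 of all TPM for the large and 3.54% ± 0.11 for the small (SD, n = 4).

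Groups of members by function spanned most of this range. The 8 proteins around the exit of the nascent peptide tunnel had a median of 862 TPM, from 364 TPM for Rpl35 and 374 TPM for Rpl22 to 1220 TPM for Rpl23a. The 7 proteins of the decoding centre and mRNA channel had a median of 576 TPM and reached from Rps23 at 461 TPM to Rps28. Of 10 genes mutated in Diamond-Blackfan anaemia, the median was 701 TPM, with Rps29 and Rps24 the highest and Rpl5 the lowest; Rps19, the gene most often affected, had 1138, 1160, 1122 and 1081 TPM. Rps27a, made as a fusion of ubiquitin to a ribosomal protein, had 709, 769, 773 and 753 TPM. Outside the naming rule, Fau, which encodes the small-subunit protein eS30 fused to a ubiquitin-like protein, had 1086 ± 31.6 TPM, and Rack1, a scaffold on the small subunit, 737 ± 14.8 (SD, n = 4). Both lie within the range of the core genes.

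The very low values of Rpl5 and Rpl27 belonged to the first of 2 deposited quantifications. In the second quantification, which was summed here from its transcripts, Rpl27 had 638, 690, 634 and 652 TPM, which is 14.5 times its first mean, and Rpl5 had 583, 664, 566 and 680 TPM, 10.8 times. Rpl27a was 5.23 times, Rpl10 5.10 times and Rps23 3.94 times higher, against a median difference of 0.50 on the log2(TPM + 1) scale over the 77 core genes. In the other direction, Rpl36 had 632 ± 66.5 TPM in the first and 310 ± 35.2 in the second quantification, and Rps27rt had 61.5 ± 19.8 in the first and was listed at 0 in all 4 libraries of the second (SD, n = 4).

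Nearly all members share sequence with other annotated genes. Stretches of 31 bases were compared between the protein-coding transcripts of the members and all transcripts of other genes. A copy was defined as a non-member gene that shares at least 50 such stretches with a member, making up at least 20% of those in a transcript of the copy. Genes that overlap a member were not left out. Each copy was given only to the member with which it shared most stretches, and members were never counted as copies of each other. By this definition 81 of the 86 members had copies, 702 in all, and the members without included Rps27 and Rpl39l. Rps27 is without copies only by this rule. Other genes held 50.1% of its stretches, and Rps27rt, itself a member, held 49.8%. The highest shares of a member's own stretches found in other genes were 94.1% for Rpl36 and 92.7% for Rps27rt, with 44.7% for Rpl5 and 40.8% for Rpl27. Over the 77 core genes this share did not go with the log2 difference between the quantifications (Spearman's rho 0.036, over genes of the same 4 libraries). The share is taken over all protein-coding transcripts of a member together, so further transcripts without shared stretches lower it. Rps15a had 6021 stretches and a share of 7.04%, and Rpl36 had 353. Whether shared coding sequence goes with the difference was therefore not tested. The processed pseudogene Gm15500, at chr7:114705217-114706235 on the minus strand (GRCm38, GENCODE M21), aligned to all 891 coding bases of Rpl5 with 0 mismatches. Reads of those bases cannot be told apart by their letters. The first 60, the same in both genes, are shown as an example of what such a read holds.

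Rpl5 and Gm15500, coding bases 1 to 60: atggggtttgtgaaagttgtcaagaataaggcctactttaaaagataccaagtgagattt

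In the first quantification Gm15500 held 1066, 1137, 1070 and 1091 TPM, against the 57.5 ± 3.40 TPM of Rpl5 (SD, n = 4), so Rpl5 kept 5.0% of the sum with all its copies. The second quantification also gave Gm15500 more than Rpl5, with 1043 ± 51.2 TPM (SD, n = 4). The same held for Gm10275, a copy of Rpl12, with 1525 ± 74.7 TPM against 699 for Rpl12 in the second, Gm6472, a copy of Rps7, with 1332 ± 51.2 against 556, and Gm2000, a copy of Rpl35, with 1012 ± 26.1 against 643. Other copies were listed at or near 0 in the second quantification. Rps23-ps1 had 1432 ± 55.5 TPM in the first and 0 in the second, Rpl10-ps3 had 687 ± 25.01 and 0, and Rps12-ps3 had 494 ± 48.3 and 3.69 ± 6.93 (SD, n = 4). Rpl27-ps3 and Gm11518 had the same value as each other in every library, 299, 318, 318 and 303 TPM, in the first quantification and 0 in the second. The coding sequences of Rpl27, Rps12 and Rpl10 also aligned to Rpl27-ps3, Rps12-ps3 and Rpl10-ps3 over their whole length with 0 mismatches. That of Rps23 aligned to Rps23-ps1 over 425 of 429 bases. In the first quantification 12 copies, of 11 members, had a higher mean TPM than their member, and 5 copies did in the second.

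When each core gene was summed with its copies, the levels were more alike. Rpl5 became 1150 ± 33.6 TPM, Rpl27 665 ± 19.4, Rpl27a 1335 ± 34.0, Rpl10 913 ± 25.4, Rps23 1896 ± 60.2 and Rpl12 2158 ± 54.0 (SD, n = 4). The lowest core gene was then Rpl24, with 353 TPM, and the highest stayed Rps27, to which no copy was given. The range of means thus narrowed from 89.7-fold to 11.4-fold. The SD of log2 mean TPM over the 77 genes was 1.06 for the genes alone and 0.63 with copies, although adding copies can only raise a gene. Between quantifications, the SD of the difference was 0.73 for the genes alone and 0.28 with copies, and the correlation across genes was r = 0.73 and r = 0.90, a description over 77 genes of the same libraries that are not independent replicates. The difference between the subunits was -0.38 ± 0.01 in the first quantification with copies and -0.35 ± 0.01 in the second quantification without, in the same direction as for the genes alone and smaller. Where copies hold a member's sequence, its own level is therefore uncertain, and how far expression of the copies contributed was not tested.

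**Figure D2:**
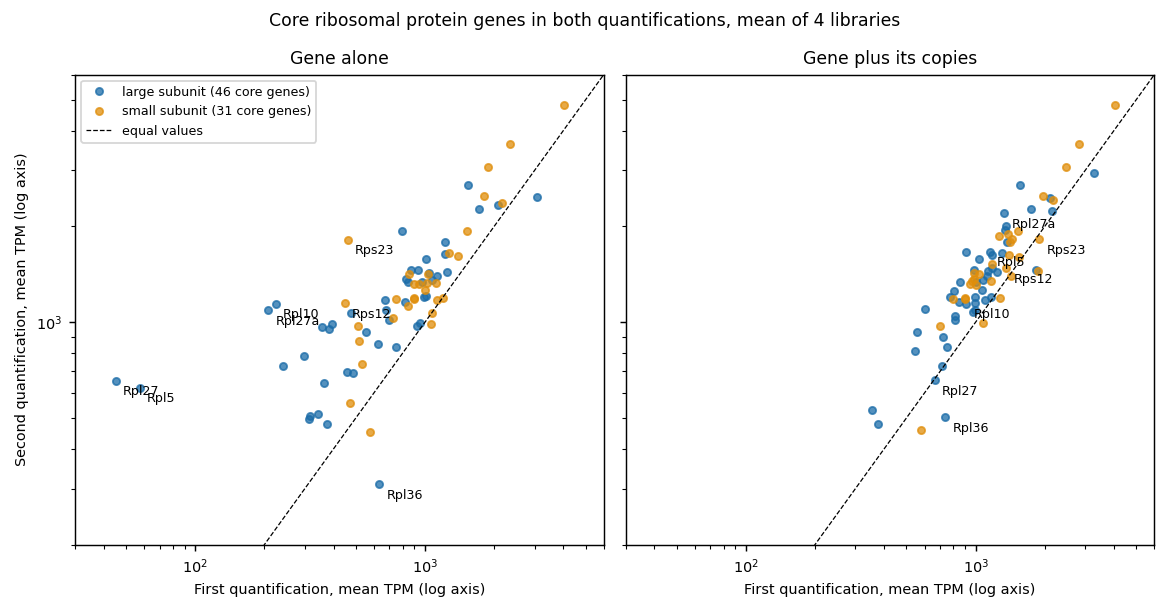
Mean TPM of the 77 core genes in the first (x axis) and second quantification (y axis), both log axes, for the gene alone on the left and summed with its copies on the right, with a dashed line of equal values. Rpl27 and Rpl5 lie far left of the other genes on the left side, and Rpl27a, Rpl10 and Rps23 lie, like them, well above the dashed line. These genes join the others on the right, where the correlation across genes is 0.90.

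Paralogs were present at very different levels. Rpl22, a large-subunit protein needed for the development of alpha-beta T cells in mice, had 369, 392, 361 and 373 TPM, and its paralog Rpl22l1 had 130, 128, 141 and 120 TPM. The log2(TPM + 1) difference was 1.52 ± 0.13 and Rpl22 was higher in 4 of 4 libraries. Rps27 exceeded Rps27l, a target of p53 at 11.2, 18.7, 15.2 and 15.8 TPM, by 7.98 ± 0.27. Rpl7 exceeded Rpl7l1 (20.0, 21.1, 22.2 and 20.4 TPM) by 5.52 ± 0.06. Rpl36a exceeded Rpl36al (167, 182, 155 and 152 TPM) by 0.56 ± 0.14, and by 1.80 ± 0.09 in the second quantification. Rpl39, at 580, 556, 548 and 536 TPM, exceeded Rpl39l, a testis paralog with no count in any library, by 9.12 ± 0.05 on this scale, which depends on the added 1 because Rpl39l is listed at 0. For each of these 5 pairs an exact sign-flip permutation test, two-sided and with the 4 libraries as units, gave p = 0.125, the smallest it can give, and 0.125 after Benjamini-Hochberg adjustment over the 5 pairs, so no pair could pass 0.05. Rpl10l, another paralog of male germ cells, had no count, and Rpl3l, the form of Rpl3 in heart and skeletal muscle, had 0.08 ± 0.09 TPM, from 1.00 counts on average per library. A count of 0 allows up to 3 counts, or 0.174 to 0.206 CPM (counts scaled to the library total) in these libraries, and this limit covers counting error only. Rps19bp1 had 8.15, 7.61, 10.02 and 7.67 TPM.

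Rps27rt is a paralog without introns. Rps27 lies at chr3:90212522-90213651 on the minus strand and has 4 exons in its reference transcript. Rps27rt lies at chr9:114982366-114982739 on the minus strand in 1 exon, overlapping Osbpl10 on the other strand, and its 252 coding bases are those of Rps27 with 0 mismatches. The stretches from 30 bases before to 25 bases after the annotated start (RefSeq, GRCm38.p6), at chr3:90213624-90213678 and chr9:114982715-114982769, both on the minus strand, are shown with the longest stretch common to both in capitals.

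Rps27: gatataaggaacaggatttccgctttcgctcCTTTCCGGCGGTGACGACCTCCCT
Rps27rt: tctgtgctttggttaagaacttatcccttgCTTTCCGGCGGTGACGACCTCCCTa

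Within these windows the common stretch has 24 bases and runs to the last base shown for Rps27. It begins 1 base into the Rps27 transcript and at the first base of Rps27rt, and upstream of it the letters have little in common. The RefSeq promoter table had windows for 66 of the 86 members, 78 windows of 300 bases in all, out of 32851. A run of 8 or more C or T on the sense strand between -20 and +30 was found in 44.9% of the member windows and in 19% of all windows. Examples across the range of levels are shown from 30 bases before to 25 after the start, with the longest run in capitals, followed by Rps28 and Rpl41, abundant members without a run of that length.

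Rpl13a (chr7:45128721-45128775, minus): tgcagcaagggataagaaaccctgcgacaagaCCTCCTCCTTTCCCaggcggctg
Rpl15 (chr14:18270962-18271016, minus): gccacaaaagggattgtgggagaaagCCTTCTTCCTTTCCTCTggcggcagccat
Rps6 (chr4:86857343-86857397, minus): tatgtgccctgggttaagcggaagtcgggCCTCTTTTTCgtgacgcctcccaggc
Rpl7a (chr2:26910777-26910831, plus): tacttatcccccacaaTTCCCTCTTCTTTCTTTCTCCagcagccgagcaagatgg
Rpl27a (chr7:109519165-109519219, plus): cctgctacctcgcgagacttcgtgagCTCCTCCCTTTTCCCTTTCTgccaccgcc
Rpl22l1 (chr3:28805478-28805532, plus): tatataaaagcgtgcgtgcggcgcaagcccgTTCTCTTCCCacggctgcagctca
Rps28 (chr17:33824538-33824592, minus): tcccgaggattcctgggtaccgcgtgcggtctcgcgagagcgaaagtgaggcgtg
Rpl41 (chr10:128549144-128549198, minus): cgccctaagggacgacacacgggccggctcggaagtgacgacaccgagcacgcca

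The run did not go with a higher level among the core genes in the promoter table. The 32 core genes with a run had a median of 760 TPM (57.5 to 4045) and the 25 without had 871 TPM (45.1 to 1877), and with copies the medians were 1077 and 1178 TPM. Matches depend on the annotated start, and a missing run says only that these letters are not in the window. Searched on both strands of the 300 bases, CCGGAAG, a core sequence of ETS-family factors, was found in 34.6% of member windows and 8.86% of all windows, GGGCGG in 60.3% and 35.7%, AAGATGGC in 10.3% and 2.75%, and TATAAA in 8.97% and 13.6%. The members are spread over 19 chromosomes, with 14 on chromosome 7 and 8 each on chromosomes 9 and 17. Genes for small nucleolar RNAs, which guide the modification of ribosomal RNA, lie inside 30 of the core genes on the same strand, 58 in all, with 5 in Rpl4 and 4 in Rpl13a. Core genes with such a guest had a median of 781 TPM and those without 934 TPM, and with copies added the order turned, with 1161 and 1033 TPM.

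Much of the member signal was assigned to transcripts not annotated as protein coding. Of the 505 annotated member transcripts, the 237 protein-coding ones held 79.4% ± 0.82 of member TPM in the first quantification, the 177 with a retained intron 11.5% ± 0.08, the 26 annotated for nonsense-mediated decay 4.64% ± 0.22 and the 65 other processed transcripts 4.44% ± 0.63 (SD, n = 4). In the second quantification the shares were 69.3% ± 0.65, 17.99% ± 0.47, 2.43% ± 0.12 and 10.3% ± 0.77.

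**Figure D3:**
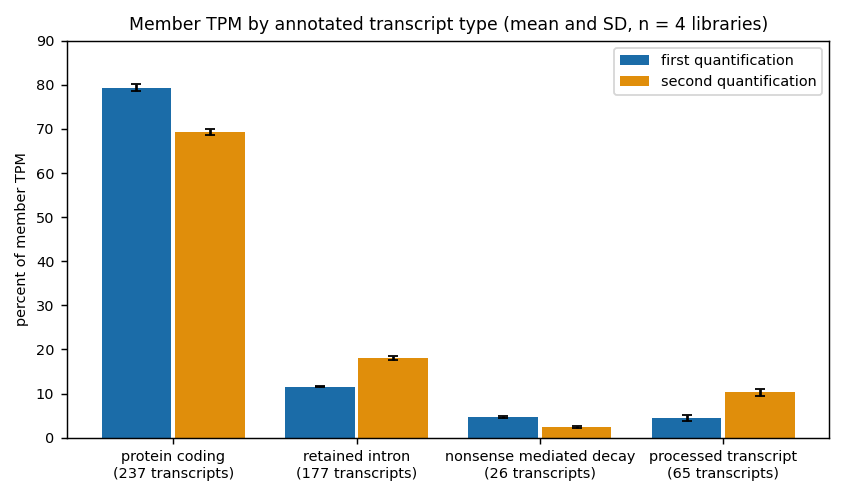
Share of member TPM (percent, y axis) by annotated transcript type in the first and second quantification, bars from 0 with the mean and SD of 4 libraries. Protein-coding transcripts hold 79.4% and 69.3%, and the error bars are small beside the difference between the quantifications.

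Transcripts outside the protein-coding class added to over 50% of the gene in 17 members by the first and 22 by the second quantification, with 11 members in both. Single transcripts of this kind with at least 10% of their gene numbered 41, in 31 members, in the first quantification and 53, in 42 members, in the second, and 22 were common to both. Some had a large share in both. Rps26-202, annotated with a retained intron, held 95.5, 96.0, 96.4 and 96.8 percent of Rps26 in libraries 1 to 4 of the first quantification and 96.4% ± 0.41 in the second. Rpl35-203 held 94.6% ± 0.98 of Rpl35 and 98.0% ± 0.50, Rpl23-204 84.5% ± 0.98 of Rpl23 and 94.3% ± 0.10, Rps16-203 70.8% ± 1.17 of Rps16 and 84.8% ± 0.66, and Rpl15-206 40.7% ± 1.03 of Rpl15 and 41.1% ± 1.73. Others depended on the quantification. Rps18-210 held 78.7% ± 2.60 of Rps18 in the first and 0.59% ± 0.77 in the second, Rps23-202 86.6% ± 1.69 and 2.55% ± 4.06 of Rps23, and Rpl22l1-209 55.8% ± 8.87 and 0% of Rpl22l1. Transcripts annotated for nonsense-mediated decay included Rpsa-206, with 78.2% ± 0.87 of Rpsa in the first and 32.8% ± 2.50 in the second, and Rpl12-201, with 63.9% ± 1.19 and 44.8% ± 2.82. Rps24-203, a processed transcript of 461 bases, held 22.2, 12.6, 33.6 and 57.0 percent of Rps24 in libraries 1 to 4, the widest spread in the first quantification among the transcripts of this kind at 10% or more, while the level of the whole gene varied by a coefficient of variation of 3.37%. In the second quantification Rps24-203 held 13.6% ± 6.74, and Rps28-204, with 36.7% ± 42.4 of Rps28, and Rpl34-204, with 32.4% ± 31.2 of Rpl34, spread more widely. These shares are estimates from short reads over transcripts that overlap, with no test.

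Single members varied little between libraries. Variation beyond the trend of all genes was tested gene by gene with edgeR's goodness-of-fit test on the expected counts and Benjamini-Hochberg adjustment over 13118 genes, of which 183 (1.4%) were called at an adjusted p under 0.05 and 4.6% had an unadjusted p under 0.05. Of the 83 members tested, 2 were called, Rps27rt and Rps12, and 4 had an unadjusted p under 0.05, a share near that of all genes. The coefficient of variation of TPM over the 4 libraries had a range of 1.09% for Rpl23a to 16.0% for Rps12 among the core genes. The median SD of log2 CPM was 0.081 for the tested members and 0.121 for all tested genes. It was lower, at 0.058, for 370 other protein-coding genes with at least 100 TPM. Correlations of log2(TPM + 1) over the 86 members between pairs of libraries were 0.998 to 0.999, a description in which all pairs share the same genes.

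Rps12, at chr10:23785183-23787275 on the minus strand, with 3 small nucleolar RNA genes inside it, was highest in library 2 and lowest in library 4 (adjusted p = 0.0287). Its copy Rps12-ps3 had 466, 450, 501 and 559 TPM, lowest where Rps12 was highest and highest where Rps12 was lowest, and the copy Rps12l1 had 237, 262, 218 and 240 TPM. Summed with all its copies, Rps12 had 1311, 1444, 1341 and 1355 TPM, and the edgeR test on those counts gave an adjusted p of 0.999983. In the second quantification it had 1069, 1202, 1147 and 1164 TPM. The call was also lost in the fits without replicate 2 and without replicate 4, with edgeR adjusted p of 0.932 and 0.864. Rps27rt had 82.4, 48.3, 73.9 and 41.3 TPM, with libraries 1 and 3 above libraries 2 and 4 (edgeR adjusted p = 0.00140), and 0.203 without replicate 1. Rps12 and Rps27rt also had the highest uncertainty of assignment: the posterior standard deviation deposited with the counts was 10.2% of the posterior mean for Rps12 and 18.7% for Rps27rt, against a median of 0.42% over the 84 members with a count. The part of read assignment in either call was not tested.

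**Figure D4:**
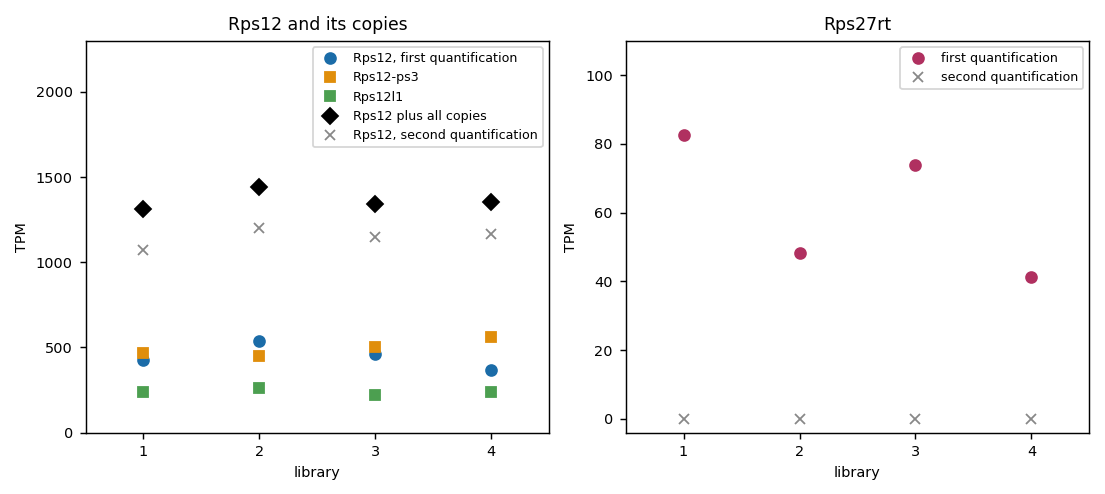
TPM by library (x axis, libraries 1 to 4) of Rps12 with its copies on the left and of Rps27rt on the right, 1 point per library and no error bars. Rps12 alone ranges from 367 to 538 TPM while the sum with its copies stays between 1311 and 1444 TPM, and Rps27rt is between 41.3 and 82.4 TPM in the first quantification and at 0 in the second.

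Next in order of p were Rpl36, a large-subunit protein, with 667, 706, 598 and 558 TPM (edgeR adjusted p = 0.223), Rps7 (edgeR adjusted p = 0.734) and the paralog Rpl36al (edgeR adjusted p = 0.999987). All 3 were highest in library 2 and lowest in library 4, and none passed after adjustment.

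That order was shared by most members, at a small size. After TMM scaling of the counts, the median member stood at 0.04, 0.07, -0.02 and -0.08 in libraries 1 to 4, as log2 deviations from its own mean over all 4. Of the 83 tested members, 72 had their lowest value in library 4, against 28.2% of the 13118 genes tested, and 65 their highest in library 2, against 23.9% of all genes. In percent, the members' shares were 86.7% and 78.3%. The direction was the same with DESeq2 size factors, upper-quartile scaling, in the second quantification and with copies added, where 66 to 74 members were lowest in library 4, and with total counts only, where 56 were. All of these used counts, and in TPM the order was only in part the same. The mean log2(TPM + 1) of the core large-subunit genes was 9.24, 9.32, 9.24 and 9.24 in libraries 1 to 4. That of the core small-subunit genes was 9.94, 10.02, 9.94 and 9.90. Members are not independent of each other and 4 libraries give no test of such an order, so it stands as a description. Library 2 also had the most total expected counts (17335895) and library 4 the fewest (14584388). The part of sequencing depth in the members' order was not tested.

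Other abundant genes showed part of the same order. Of 370 other protein-coding genes with at least 100 TPM, 54.9% were lowest in library 4, with a median deviation of -0.04 there and 0.04 in library 2, about as in the 51 of them shorter than 1000 bases (56.9% lowest in library 4, median -0.04). Of the 10 pan-T markers, 8 were lowest in library 4, with a median of -0.07, and in that library 8 of 8 tested B cell markers and 3 of 3 tested erythroid markers were far above their mean, by medians of 2.13 and 3.19 on the log2 scale. Summed, the B cell and erythroid markers made 931 TPM in library 4, while the members' sum was 70296 TPM there and 71225 to 75124 in the other libraries. In a bulk sample, fewer cells of a type and less RNA per cell cannot be told apart, and the part of other cell types in the members' order was not tested.

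**Figure D5:**
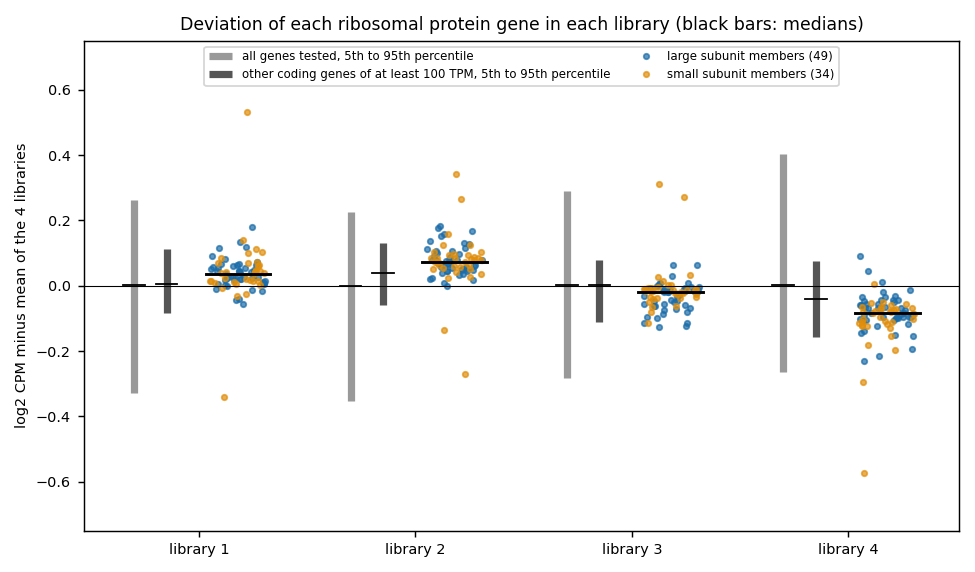
Deviation of log2 CPM from the mean of the 4 libraries (y axis) for the 83 tested members, 1 point per gene, coloured by subunit, with black median bars. Vertical bars show the range from the 5th to the 95th percentile of all 13118 tested genes and of 370 other coding genes of at least 100 TPM. Most members lie above 0 in library 2 and below 0 in library 4, with a median of -0.08 there.

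Genes that build ribosomes and control these messenger RNAs were tested in the same way, and their counts of calls stand beside 1.4% called over all genes, a share from which lists of this size would hold few or no calls. None of 26 small-subunit assembly genes, 29 tested large-subunit assembly genes or 17 genes of ribosomal RNA transcription was called by the edgeR test, with 1, 0 and 0 of them at an unadjusted p under 0.05. Their median levels were 24.8, 27.9 and 24.4 TPM, far below those of the ribosomal protein genes. In these lists 17, 16 and 8 genes were lowest in library 4. The median deviations were -0.08, -0.06 and -0.03 in library 4 and 0.04, 0.02 and 0.04 in library 2. Highest in the small-subunit list were the box C/D protein Nop56, with 144 ± 21.7 TPM, the kinase Riok1, with 77.8 ± 5.50, and Nop58, with 68.6 ± 3.25 (SD, n = 4). In the large-subunit list the nucleolar GTPase Gnl3 had 105 ± 6.45 TPM, Nsa2 65.5 ± 0.99 and Rpf1 44.2 ± 2.63. In the list of ribosomal RNA transcription the nucleolar chaperone Npm1 had 266 ± 3.68 TPM, nucleolin (Ncl) 179 ± 8.48 and Taf1d, a subunit of the RNA polymerase I selectivity factor, 106 ± 3.68.

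None of the 19 genes that control TOP messenger RNAs was called by the edgeR test. Of these, Pabpc1, the poly(A)-binding protein, had 615 ± 34.0 TPM, Cnbp 181 ± 4.97 and the translation repressor Eif4ebp2, a target of mTOR, 65.7 ± 3.03 (SD, n = 4). In this list 6 genes were lowest in library 4, with median deviations of -0.01 in library 2 and 0.01 in library 4. None of the 16 other TOP messenger RNAs was called either. Eef1a1, the elongation factor that delivers aminoacyl-tRNA, had 4019 ± 82.1 TPM, close to Rps27, Tpt1 had 3238 ± 76.6 and the translocation factor Eef2 838 ± 17.1. These 16 genes, of which Npm1 also stands in the list of ribosomal RNA transcription and Pabpc1 in that of TOP control, had median deviations of 0.06 in library 2 and -0.05 in library 4, and 13 of them were lowest in library 4. None of 10 mitochondrial ribosomal protein genes was called, with Mrps5 the highest at 47.7 ± 5.67 TPM, Mrps18b at 23.998 ± 3.34 and Mrpl3 at 19.8 ± 1.84. Of these 10 genes, 5 were lowest in library 4, with median deviations of 0.08 in library 2 and -0.05 in library 4, about as in the TOP list. None of the 4 tested genes of the ribosome stress checkpoint was called, with Mdm4 at 86.9 ± 4.17 TPM and Mdm2, the ligase that the free 5S particle holds, at 53.95 ± 3.61. Of these 4 genes, 0 were lowest in library 4. In these last 4 lists 0 genes had an unadjusted p under 0.05, beside 4.6% of all genes, and with so few genes a list without calls says little about these genes.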

How the data were processed

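The members and the gene lists were chosen with earlier results of these data known. Each library was quantified alone against mm10 and GENCODE M21, per the text deposited with it, and for the aligner and quantifiers no name is given in the sources used here. The first quantification holds deposited expected counts, TPM and FPKM values per gene, percent values giving a transcript's share of its gene, and, per the file headers, a posterior mean and standard deviation of each count. A second table of estimated counts and TPM per transcript, also deposited by the authors, was summed per gene. Reads were assigned to the C57BL/6 reference, so reads with CAST/EiJ variants may be lost or moved to similar genes, which was not tested.

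Expected counts were rounded and tested with edgeR 4.0.16 in R 4.3.3 (intercept only, TMM scaling, trended dispersion, filterByExpr, goodness of fit, Benjamini-Hochberg adjustment at 0.05). On simulated counts over 12881 genes for this test, 64 of 99 genes changed 2-fold in 1 library, 97 of 98 changed 4-fold and 1 of 12684 unchanged genes were called. Spike-ins (0.299% to 0.347% of counts) and 26248 numeric identifiers that name no gene stayed out. Log values are log2(TPM + 1). Ratios of paralogs were tested with an exact sign-flip permutation test. Shared stretches came from the GENCODE M21 transcripts, coding alignments used Biopython 1.88, and promoter windows came from RefSeq (GRCm38.p6). The copies were defined after the levels had been seen. DESeq2 1.42.0 gave alternative size factors. Values in every library are printed for the 5 highest and 5 lowest core genes of each subunit, the stalk, 5S and paralog genes, the called genes and those with the smallest p, and the genes that differ most between quantifications. Transcripts are given by example, list genes as the highest of each list, and other members mostly as means or counts. A few genes to which this rule would apply are not reported here, though they stay in all counts and sums.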

Additional observations from a re-analysis of the deposited data

Results flagged for a closer look

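Of 90 sets of 4 values examined, 4 had a library set apart from the other 3 by more than Dixon's 95% critical value, and chance flags about 1 in 20 sets. Rpl13 had 687 TPM in library 2 against 605 to 609 in the others. Rpl14 had 406 TPM in library 2 against 386 to 389, and Rpl24 358 TPM against 336 to 338. The difference between the subunits in mean log2(TPM + 1) was -0.66 in library 4 against -0.70 in each of the others. All 3 genes encode large-subunit proteins, and library 2 had the highest member share of TPM.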

How the results depend on the processing

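With copies added after seeing the data, with total counts only or with a common dispersion, 1 member varied between libraries by the edgeR test. In the second quantification 0 of 82 tested members did, with 3 at an unadjusted p under 0.05. Rps27rt, listed at 0 there, was not among these 82, so that fit gave no test of it. Leaving out each replicate gave 1 to 2. Rps27rt was the member called with total counts, common dispersion and copies, and without replicate 2 and without replicate 4, and Rps12 the one called without replicate 1. The member share of TPM was 20.9% of protein-coding nuclear TPM, 10.2% in the second quantification and 3.82% of expected counts. The large minus small subunit difference was -0.35 in the second quantification, -0.90 over all members by name and -0.38 with copies. Members detected numbered 82 at a minimum of 10 TPM and in the second quantification and 83 otherwise. The direction of all 5 paralog differences was the same under every alternative tried, with p of 0.125 or, over 3 libraries, 0.25. No paired analysis was possible because there is 1 group. The difference of Rpl36a from Rpl36al was 0.56 in the first and 1.80 in the second quantification. Depth limits Rps27l, which rested on 75 to 134 counts per library.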
